A study of Mus musculus with 9 samples.

Results

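Expression of 7 genes of cholesterol synthesis and its feedback control was described in MHCII+ myeloid cells of the mouse peritoneal cavity. The genes were taken by symbol from the deposited table, and all 7 were found among its 24532 genes. They are the 6 enzyme genes Hmgcs1, Idi1, Fdps, Fdft1, Sqle and Cyp51, and Insig1, which encodes a sterol sensor of the endoplasmic reticulum. No receptor for cholesterol uptake is among the 7, and uptake is covered below by a list of other genes. All 7 passed the filter on low values, and the lowest value of any of them in any library was 4.66 FPKM, a fragment count scaled by transcript length and sequencing depth, for Fdft1 in SPM replicate 2.

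All cells came from C57BL/6 mice aged 8 weeks, with no treatment or genetic change given in the labels. P-IV.I (2 libraries) and P-IV.II (2 libraries) were both sorted as CD11c+ CD115+ cells, and the labels call P-IV.I dendritic cells and P-IV.II small peritoneal macrophages. PcDC1 (1 library) and PcDC2 (2 libraries) are type 1 and type 2 peritoneal dendritic cells sorted as CD11c+ CD115-, and SPM (2 libraries) are small peritoneal macrophages sorted as CD11c- CD115+. The labels do not say whether the libraries of a group came from separate animals, so the p-values reflect the spread of these samples alone, which may be technical.

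Cells make cholesterol from acetyl-CoA through the mevalonate pathway. HMG-CoA synthase (Hmgcs1) acts early in the pathway, isopentenyl diphosphate isomerase (Idi1) and farnesyl diphosphate synthase (Fdps) build the farnesyl chain, squalene synthase (Fdft1) joins farnesyl units into squalene, squalene epoxidase (Sqle) oxidises squalene, and lanosterol demethylase (Cyp51) acts on lanosterol. The transcription factor SREBP2 (Srebf2) drives all of these genes when sterol in the endoplasmic reticulum is low, and INSIG1 holds the SREBP precursor back when sterol is high. In macrophages, excess cholesterol is exported through transporters under control of the LXR receptors, and dendritic cells carry GPR183, a receptor for oxidised cholesterol derivatives.

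RefSeq promoter sequence of GRCm38.p6, the build also called mm10, was at hand for 4 of the 7 genes. The 250 bases before the annotated start are shown 5′ to 3′ on the gene's strand because SREBP2 targets share promoter motifs. Capitals mark matches on either strand to the sterol regulatory element core TCACCCCAC, its degenerate form TCACNCCAC, the NF-Y box CCAAT, the Sp1 box GGGCGG and the E-box CACGTG. The core is contained in its degenerate form. The windows are chr13:119690101-119690350 (plus strand), chr13:8885356-8885605 (plus strand), chr5:4104698-4104947 (minus strand) and chr5:28071162-28071411 (plus strand).
Hmgcs1: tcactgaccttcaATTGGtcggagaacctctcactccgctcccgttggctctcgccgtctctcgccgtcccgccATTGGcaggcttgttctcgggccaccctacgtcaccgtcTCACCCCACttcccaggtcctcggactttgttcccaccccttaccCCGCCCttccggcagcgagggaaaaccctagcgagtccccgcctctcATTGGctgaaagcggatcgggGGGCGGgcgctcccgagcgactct
Idi1: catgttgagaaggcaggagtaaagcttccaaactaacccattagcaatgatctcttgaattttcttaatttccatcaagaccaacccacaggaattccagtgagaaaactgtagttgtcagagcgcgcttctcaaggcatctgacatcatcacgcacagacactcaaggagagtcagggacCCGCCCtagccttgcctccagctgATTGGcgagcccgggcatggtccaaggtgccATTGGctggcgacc
Cyp51: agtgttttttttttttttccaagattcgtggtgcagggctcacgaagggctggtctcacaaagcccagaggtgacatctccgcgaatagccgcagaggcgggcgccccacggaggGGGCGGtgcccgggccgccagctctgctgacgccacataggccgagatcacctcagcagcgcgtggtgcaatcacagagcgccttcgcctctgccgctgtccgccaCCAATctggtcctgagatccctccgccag
Insig1: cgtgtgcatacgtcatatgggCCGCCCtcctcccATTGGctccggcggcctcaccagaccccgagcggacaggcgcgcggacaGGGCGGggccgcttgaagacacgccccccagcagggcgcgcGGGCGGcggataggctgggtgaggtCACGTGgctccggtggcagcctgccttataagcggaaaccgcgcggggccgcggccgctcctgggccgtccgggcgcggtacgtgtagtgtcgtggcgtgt

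All 4 windows held both a CCAAT box and a GGGCGG box, as did 11 of the 13 windows of the other cholesterol synthesis enzymes with RefSeq promoters. Both were present in 24.7% of the 8459 tested genes with a promoter and in 12.5% of all 27025 genes with a RefSeq promoter. Taken singly, CCAAT was found in 41.2% of tested genes and 37.5% of all genes, and GGGCGG in 64.3% of tested and 35.4% of all genes. TCACCCCAC was present only in the Hmgcs1 window among the 4, starting 137 bases before the start, and in 0.579% of the windows of tested genes and 0.555% of all windows. TCACNCCAC matched the same Hmgcs1 site and was found in 1.21% of tested and 1.22% of all windows. CACGTG was present in the Insig1 window, 101 bases before the start, and in 10.3% of tested and 6.86% of all windows. A match is a description of letters and not evidence of binding.

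The depth of the libraries is unknown, since the files give FPKM and no counts. FPKM totals ran from 439597 to 647385 per library, and 9115 to 9847 genes reached 1 FPKM. The sort labels were checked on gate genes and marker lists. Itgax, which encodes CD11c, had 105 and 94.8 FPKM in P-IV.I, 32.0 and 22.2 in P-IV.II, 27.1 in PcDC1, 91.0 and 77.7 in PcDC2 and 2.29 and 2.04 in SPM. Csf1r, which encodes CD115, had 157 and 246 FPKM in P-IV.I, 293 and 327 in P-IV.II, 5.08 and 6.86 in PcDC2 and 476 and 740 in SPM, and was listed at 0 in PcDC1, so both gate genes followed the sort. The summed FPKM of 5 macrophage markers (Mertk, C1qa, C1qb, Adgre1, Fcgr1) was 109 to 142 in P-IV.I, 982 to 1296 in P-IV.II, 11.3 in PcDC1, 21.7 to 33.0 in PcDC2 and 2987 to 5073 in SPM, with Mertk at 0 in PcDC1 and PcDC2. The sum of 5 dendritic cell markers (Flt3, Zbtb46, Xcr1, Sirpa, Ccr7) was 428 to 452 in P-IV.I, 101 to 153 in P-IV.II, 293 in PcDC1, 570 to 825 in PcDC2 and 160 to 167 in SPM. Sirpa alone gave 90.5 to 134 FPKM in P-IV.II and 149 to 160 in SPM, most of the sum there, and 0.329 in PcDC1. Flt3, Zbtb46 and Ccr7 were each at most 11.7 FPKM in P-IV.II and SPM and at least 27.0 in P-IV.I, PcDC1 and PcDC2. Xcr1 was at 131 FPKM in PcDC1 and at most 9.32 elsewhere. A sum of 8 proliferation genes was 107 to 132 in P-IV.I, 129 to 215 in P-IV.II, 260 in PcDC1, 92.9 to 95.5 in PcDC2 and 68.1 to 75.9 in SPM. T cell markers (4 genes) summed to 16.3 to 20.6 in PcDC2 and 4.46 to 7.40 elsewhere. Markers of neutrophils, eosinophils and mesothelium (4 genes each) summed to at most 3.10 FPKM in any library, mast cell markers to 10.7 in PcDC1 and at most 3.97 elsewhere, B cell markers (4 of 5 in the table) to 3.81 to 25.9 and large peritoneal macrophage markers to 10.5 to 25.5. These marker sums move with the groups, and their part in the results below was not tested.

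The 7 genes were detected in every library, at 4.66 to 141 FPKM, with the highest mean in P-IV.I among the 4 groups with 2 libraries for all 7 of them and the next highest in PcDC2 for all 7. Hmgcs1 (Entrez 208715, chr13:119690351-119708260) makes HMG-CoA, the substrate of the rate-limiting step of the pathway. It stood at 38.4 and 26.9 FPKM in P-IV.I, 11.2 and 17.2 in P-IV.II, 11.6 in PcDC1, 21.2 and 24.0 in PcDC2 and 11.1 and 21.6 in SPM. Both P-IV.I libraries lay above all 7 other libraries. Idi1 (Entrez 319554, chr13:8885606-8892396), which interconverts the 5-carbon building blocks, had 30.8 and 18.4 FPKM in P-IV.I, 10.5 and 13.3 in P-IV.II, 14.7 in PcDC1, 18.4 and 16.1 in PcDC2 and 6.59 and 12.5 in SPM. The P-IV.I and PcDC2 libraries lay above all P-IV.II and SPM libraries.

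Fdps (Entrez 110196, chr3:89093588-89101967) makes farnesyl diphosphate, which also feeds protein prenylation. It had 72.5 and 25.04 FPKM in P-IV.I, 22.2 and 13.9 in P-IV.II, 141 in PcDC1, 33.8 and 26.8 in PcDC2 and 14.6 and 10.9 in SPM. The PcDC1 library was the highest of the 9, and the P-IV.I libraries differed from each other more than in any other of the 7 genes. Fdft1 (Entrez 14137, chr14:63145150-63181687), at the branch point committed to sterols, had the lowest levels of the 7, with 15.9 and 7.52 FPKM in P-IV.I, 4.68 and 5.63 in P-IV.II, 9.96 in PcDC1, 9.26 and 5.86 in PcDC2 and 5.01 and 4.66 in SPM. All P-IV.I and PcDC2 libraries were above all P-IV.II and SPM libraries.

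Sqle (Entrez 20775, chr15:59315092-59331193), a flavoprotein monooxygenase, had 39.6 and 31.2 FPKM in P-IV.I, 10.01 and 20.9 in P-IV.II, 26.7 in PcDC1, 24.2 and 19.8 in PcDC2 and 6.61 and 17.4 in SPM. The P-IV.II and PcDC2 libraries overlapped for Sqle. Cyp51 (Entrez 13121, chr5:4080674-4104697), a cytochrome P450, had 39.9 and 29.9 FPKM in P-IV.I, 16.4 and 17.4 in P-IV.II, 19.3 in PcDC1, 25.5 and 23.0 in PcDC2 and 9.86 and 17.3 in SPM. Its libraries fell in the order P-IV.I, PcDC2, PcDC1, with P-IV.II and SPM lowest. Insig1 (Entrez 231070, chr5:28071412-28078662) had 38.2 and 27.4 FPKM in P-IV.I, 28.1 and 10.7 in P-IV.II, 15.2 in PcDC1, 25.4 and 33.6 in PcDC2 and 18.8 and 16.0 in SPM. P-IV.II replicate 1 lay among the P-IV.I and PcDC2 libraries for Insig1, and P-IV.II replicate 2 was the lowest library.

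**Figure D1:**
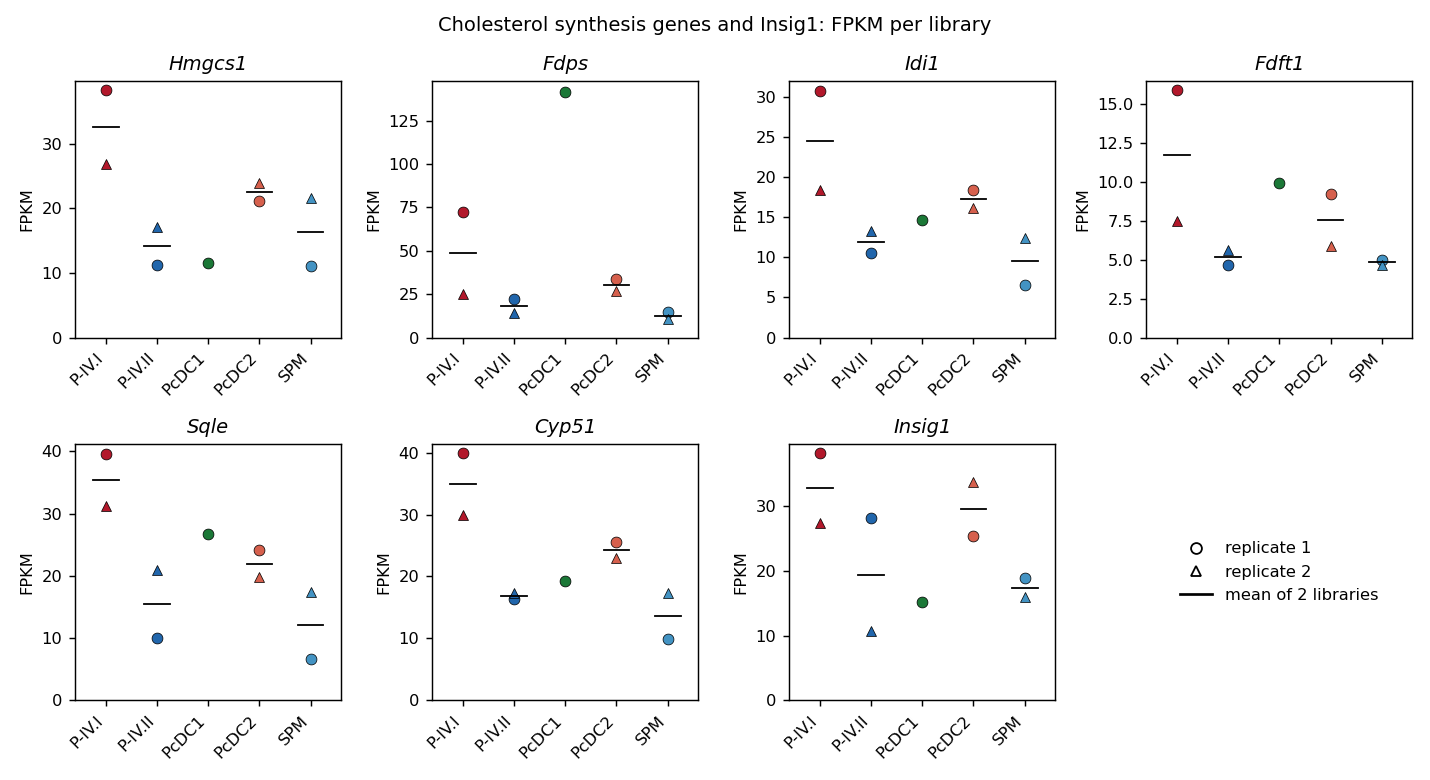
FPKM of the 7 genes in each library (y axis, linear, a scale of its own per gene) by sorted group (x axis); circles are replicate 1, triangles replicate 2 and lines the mean of 2 libraries. P-IV.I replicate 1 is the highest library in 6 of 7 genes, and PcDC1 is the highest for Fdps at 141 FPKM.

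P-IV.I replicate 1 was the highest of the 9 libraries in 6 of the 7 genes and stood behind PcDC1 for Fdps. All 7 genes were higher in replicate 1 of P-IV.I than in its replicate 2, while 5 of 7 were higher in replicate 1 of PcDC2, 2 of 7 in replicate 1 of P-IV.II and 3 of 7 in replicate 1 of SPM. The 7 genes summed to 275 and 166 FPKM in P-IV.I, 103 and 99.1 in P-IV.II, 239 in PcDC1, 158 and 149 in PcDC2 and 72.5 and 100 in SPM. Set against the summed FPKM of 15 other enzymes of cholesterol synthesis, the 7 genes came to 0.744 and 0.499 in P-IV.I, 0.435 and 0.314 in P-IV.II, 0.879 in PcDC1, 0.565 and 0.528 in PcDC2 and 0.309 and 0.302 in SPM. Fdps alone gave 141 of the 239 FPKM in PcDC1, so the PcDC1 sum and ratio rest mostly on that gene. The ratios also move with Lbr, 1 of the 15 other enzymes. Its values were 112 to 129 FPKM in P-IV.I, 56.7 to 86.2 in P-IV.II, 29.6 in PcDC1, 105 to 115 in PcDC2 and 69.2 to 138 in SPM. In sorted bulk RNA, fewer cells that make a transcript and less of it per cell cannot be told apart.

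The comparison inside the CD11c+ CD115+ gate asks how the dendritic cells and macrophages of the same gate differ. All 7 genes had a higher P-IV.I mean than P-IV.II mean, by 1.81 to 2.35 times on the fitted scale of log2(FPKM + 1), which slightly understates a fold of FPKM. None passed an adjusted p of 0.05 (limma, Benjamini-Hochberg over 10526 tested genes), and 6 had an unadjusted p under 0.05. On simulated data the fit called 8 of 100 genes given a log2 change of 1 and 75 of 100 given a change of 2. Far fewer genes were changed there than the 1012 that passed here, which makes the adjusted threshold stricter in the simulation. It therefore does not give the share of changes of this size missed in these data. Of all tested genes, 9.61% passed in this comparison and 27.1% had an unadjusted p under 0.05. In 6 of the 7 genes both P-IV.I libraries lay above both P-IV.II libraries, with Insig1 the exception, and 36.2% of all tested genes had that order. The median log2 fold change was 0.99 over the 7 genes and 0.19 over all tested genes.

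Among the enzymes early in the pathway, Hmgcs1 averaged 32.7 ± 8.09 FPKM in P-IV.I and 14.2 ± 4.24 in P-IV.II (SD, n = 2 each), a log2 fold change of 1.15 ± 0.36 (SE, 95% interval 0.32 to 1.99, limma adjusted p = 0.0883). Idi1 averaged 24.6 ± 8.78 FPKM in P-IV.I and 11.9 ± 2.01 in P-IV.II, with a log2 fold change of 0.95 ± 0.36 (limma adjusted p = 0.137). Fdps averaged 48.8 ± 33.6 FPKM in P-IV.I and 18.1 ± 5.86 in P-IV.II, with a log2 fold change of 1.23 ± 0.47 (limma adjusted p = 0.144). For Fdps the standard deviation within P-IV.I was larger than the difference of the means, and the log2 fold change was 0.49 with replicate 1 of P-IV.I left out. With replicate 2 left out instead it was 1.98 and passed (limma adjusted p = 0.0315).

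Of the squalene and lanosterol enzymes, Cyp51 had the smallest adjusted p of the 7 in this comparison, with 34.9 ± 7.07 FPKM in P-IV.I and 16.9 ± 0.715 in P-IV.II and a log2 fold change of 0.99 ± 0.30 (95% interval 0.30 to 1.68, limma adjusted p = 0.0791). Fdft1 averaged 11.7 ± 5.95 FPKM in P-IV.I and 5.15 ± 0.670 in P-IV.II (a log2 fold change of 0.97 ± 0.36, limma adjusted p = 0.138). Sqle averaged 35.4 ± 5.91 FPKM in P-IV.I and 15.5 ± 7.70 in P-IV.II (a log2 fold change of 1.22 ± 0.47, limma adjusted p = 0.144). Insig1 had the smallest difference, 32.8 ± 7.65 FPKM in P-IV.I and 19.4 ± 12.3 in P-IV.II, with a log2 fold change of 0.86 ± 0.42 and an interval of -0.11 to 1.82 that includes 0 (limma adjusted p = 0.232). The Insig1 value was 0.20 without P-IV.II replicate 2 and 1.51 without P-IV.II replicate 1, where it passed by a narrow margin (limma adjusted p = 0.04999). The median over the 7 genes was 0.62 without the P-IV.I replicate 1 library and 1.39 without the P-IV.I replicate 2 library, so the size of the difference rests on which of these libraries is used.

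Reads of 5 of the 7 genes may mix with those of overlapping genes in the GENCODE M21 annotation. The longest overlap on the same strand is that of Fdps with Gm43738, a predicted protein-coding gene, over 7512 bases, where reads cannot be told apart by strand. Gm43738 was not analysed here, and its part in the Fdps values, the high one in PcDC1 included, was not tested. Fdps also overlaps Gm22935, a small nuclear RNA gene that was not analysed here, by 104 bases on the same strand. The overlaps of the other genes are on opposite strands, and the sources used here do not say whether strand was used. Fdft1 overlaps Ctsb, which encodes the lysosomal protease cathepsin B, by 774 bases on the opposite strand. Ctsb had 216 and 286 FPKM in P-IV.I, 368 and 447 in P-IV.II, 121 in PcDC1, 210 and 204 in PcDC2 and 726 and 1018 in SPM, an order opposite to that of Fdft1 for P-IV.I against P-IV.II and for PcDC2 against SPM. Cyp51 overlaps Akap9, an anchoring protein of the centrosome and Golgi, by 166 bases on the opposite strand, and Akap9 did not exceed 3.66 FPKM. Hmgcs1 and Idi1 overlap annotated genes on the opposite strand, by 6190 and 323 bases, that were not analysed here.

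**Figure D2:**
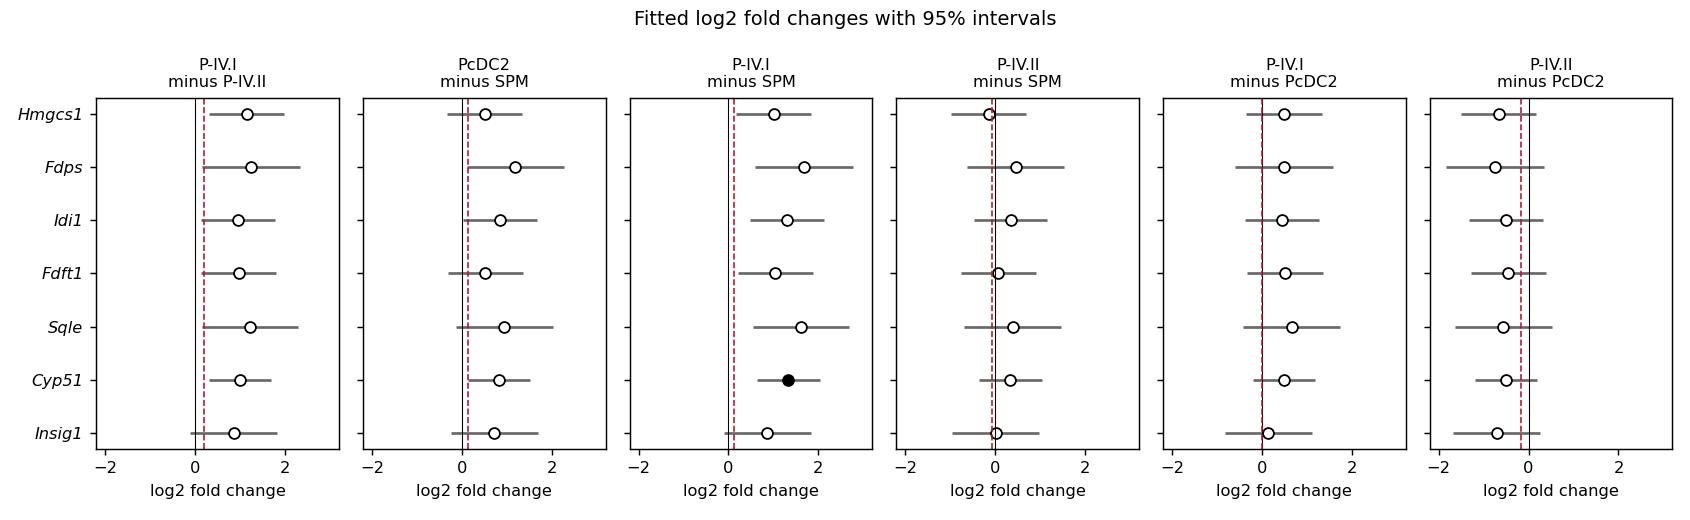
Fitted log2 fold change on the scale of log2(FPKM + 1) (x axis) of the 7 genes (rows) in the 6 comparisons of replicated groups, with 95% intervals as bars and the median of all tested genes as a dashed line. The filled point, Cyp51 in P-IV.I minus SPM at 1.33, is the only value with an adjusted p under 0.05.

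PcDC2 and SPM are the dendritic cells and macrophages outside that gate. All 7 genes again had higher means in PcDC2 than in SPM, none passed an adjusted p of 0.05 (limma), and 3 had an unadjusted p under 0.05. The share of all tested genes that passed was 19.7%, and 33.1% had an unadjusted p under 0.05. Both PcDC2 libraries were above both SPM libraries in 6 of 7 genes, with Hmgcs1 the exception, against 35.9% of all tested genes, and the median log2 fold change was 0.84 over the 7 and 0.13 over all tested genes. Fdps had the largest difference, with 30.3 ± 4.94 FPKM in PcDC2 and 12.7 ± 2.62 in SPM (log2 fold change 1.19 ± 0.47, limma adjusted p = 0.118). Cyp51 had the smallest adjusted p, with 24.2 ± 1.81 FPKM in PcDC2 and 13.6 ± 5.28 in SPM (log2 fold change 0.84 ± 0.30, limma adjusted p = 0.0900).

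Idi1 averaged 17.3 ± 1.62 FPKM in PcDC2 and 9.52 ± 4.15 in SPM (log2 fold change 0.85 ± 0.36, limma adjusted p = 0.136), and Sqle averaged 22.0 ± 3.12 FPKM in PcDC2 and 12.03 ± 7.66 in SPM (log2 fold change 0.95 ± 0.47, limma adjusted p = 0.2003). Insig1 averaged 29.5 ± 5.82 FPKM in PcDC2 and 17.4 ± 2.02 in SPM, with a log2 fold change of 0.72 ± 0.42 (limma adjusted p = 0.278). The smallest differences were those of Fdft1, 7.56 ± 2.40 FPKM in PcDC2 and 4.83 ± 0.247 in SPM (log2 fold change 0.53 ± 0.36), and Hmgcs1, 22.6 ± 1.97 FPKM in PcDC2 and 16.3 ± 7.42 in SPM (log2 fold change 0.51 ± 0.36). Hmgcs1, Idi1, Sqle and Cyp51 were all lower in SPM replicate 1 than in SPM replicate 2, and without SPM replicate 1 the median over the 7 genes was 0.46.

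Whether the difference of P-IV.I from P-IV.II differs from that of PcDC2 from SPM was tested as an interaction in the same fit. None of the 7 genes passed an adjusted p of 0.05 (limma), against 1.11% of all tested genes. None had an unadjusted p under 0.05, against 10.2% of all tested genes. The estimates ran from 0.04 (Fdps, 95% interval -1.497 to 1.58) to 0.64 (Hmgcs1, 95% interval -0.54 to 1.82) on the log2 scale. These intervals are wide, and a difference of 1 on the log2 scale lies inside each of these 2.

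Across the gates, P-IV.I set against SPM gave the largest fitted difference of the 6 comparisons for 6 of the 7 genes, all but Hmgcs1, and the only call. Cyp51 in P-IV.I exceeded its SPM level, with 34.9 ± 7.07 FPKM in P-IV.I and 13.6 ± 5.28 in SPM, a log2 fold change of 1.33 ± 0.30 (95% interval 0.64 to 2.02, limma adjusted p = 0.0259). The Cyp51 call did not hold on leaving out SPM replicate 1 (adjusted p = 0.107), P-IV.I replicate 1 (0.164), P-IV.I replicate 2 (0.0560) or either PcDC2 library (0.0554 in both cases), with median-ratio rescaling (0.0580), with no filter on low values (0.0538) and with only the groups compared (0.0707). Over all settings its log2 fold change stayed between 0.96 and 1.71. In this comparison 6 of the 7 genes had an unadjusted p under 0.05, against 24.1% of all tested genes, and 11% of all tested genes passed the adjusted threshold, with 6.41% of all tested genes passing as higher in P-IV.I.

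Fdps had a log2 fold change of 1.69 ± 0.47 in P-IV.I over SPM (limma adjusted p = 0.0590), Sqle of 1.61 ± 0.47 (limma adjusted p = 0.0658) and Idi1 of 1.29 ± 0.36 (limma adjusted p = 0.0557). Fdft1 had 1.04 ± 0.36 (limma adjusted p = 0.119), Hmgcs1 1.01 ± 0.36 (limma adjusted p = 0.130) and Insig1 0.87 ± 0.42 (limma adjusted p = 0.262). Both P-IV.I libraries lay above both SPM libraries in 7 of 7 genes, against 30.3% of all tested genes. The median log2 fold change was 1.29 over the 7 genes and 0.12 over all tested genes. This comparison shares its P-IV.I libraries with P-IV.I versus P-IV.II and its SPM libraries with PcDC2 minus SPM, so these values do not stand independently of each other.

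Between the macrophage groups the fitted differences were small. P-IV.II minus SPM gave log2 fold changes between -0.15 (Hmgcs1) and 0.45 (Fdps). None of the 7 passed (limma adjusted p from 0.691 to 0.995), against 1.14% of all tested genes. None had an unadjusted p under 0.05, against 11% of all tested genes. The libraries of P-IV.II and SPM overlapped in all 7 genes, while 16.2% of all tested genes were higher and 22.9% lower in both P-IV.II libraries, and the intervals reached from -0.98 to 0.69 for Hmgcs1 and from -0.63 to 1.54 for Fdps. Between the dendritic groups, P-IV.I minus PcDC2 gave log2 fold changes between 0.14 (Insig1) and 0.66 (Sqle). None passed (limma adjusted p of at least 0.968), against 0.732% of all tested genes. None had an unadjusted p under 0.05, against 7.01% of all tested genes. Hmgcs1, Sqle and Cyp51 were higher in both P-IV.I libraries than in both PcDC2 libraries, which is 3 of 7 against 19% of all tested genes. Without P-IV.I replicate 1 the median difference of the 7 genes in that comparison was 0.08, against 0.49 with it.

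P-IV.II minus PcDC2 was negative in all 7 genes, between -0.74 (Fdps) and -0.45 (Fdft1) on the log2 scale. None of the 7 passed (limma adjusted p from 0.234 to 0.437), against 20.7% of all tested genes. None had an unadjusted p under 0.05, against 35.1% of all tested genes. Both P-IV.II libraries were below both PcDC2 libraries in 5 of 7 genes (not Sqle or Insig1), against 39.8% of all tested genes. By mean FPKM the order of the replicated groups was P-IV.I, PcDC2, P-IV.II and SPM for 6 genes, and P-IV.I, PcDC2, SPM and P-IV.II for Hmgcs1, and no neighbours in that order differed by the limma test. In the unpaired fit the place of P-IV.II above SPM rested on single libraries. Without SPM replicate 1 only 3 of the 7 genes were higher in P-IV.II than in SPM. The median difference was then -0.04 on the log2 scale, against 0.34 with that library. Without P-IV.II replicate 2, 4 of the 7 genes were higher. Same-numbered libraries of P-IV.II and SPM deviated together (r = 0.711 over all tested genes). Fdps, Idi1, Sqle and Cyp51 were higher in P-IV.II within both replicate numbers, and Hmgcs1, Fdft1 and Insig1 were not. A moderated F test over the 4 groups gave an adjusted p of 0.0528 for Cyp51, 0.109 for Idi1, 0.110 for Fdps, 0.134 for Sqle, 0.149 for Hmgcs1, 0.193 for Fdft1 and 0.309 for Insig1. None passed, against 18.4% of all tested genes.

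PcDC1 has 1 library, so its values have no replicate check and no test. Its values are set beside those of PcDC2 as a description. Fdps at 141 FPKM was 4.67 times the PcDC2 mean of 30.3 FPKM, a difference of 2.20 on the log2(FPKM + 1) scale. Of 10526 tested genes 457, or 4.34%, had a difference at least as high, and the median over all tested genes was -0.36. Fdft1 at 9.96 FPKM and Sqle at 26.7 FPKM were also above both PcDC2 libraries, by ratios to the mean of 1.32 and 1.21. Hmgcs1 (0.511 times the PcDC2 mean), Insig1 (0.515), Cyp51 (0.798) and Idi1 (0.849) were below both PcDC2 libraries.

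The profiles of the 7 genes over the 9 libraries were alike to varying degrees. Pearson's r of log2(FPKM + 1) over the 21 pairs ran from 0.092 (Hmgcs1 with Fdps) to 0.982 (Idi1 with Cyp51), with a median of 0.591. Idi1, Sqle and Cyp51 had r of 0.906 to 0.982 with each other. Insig1 was less like the enzymes, with r between 0.227 (Sqle) and 0.591 (Cyp51), and Fdps was closest to Fdft1 (0.812). These values are descriptions, since the libraries of a group share a cell type and all genes of a library share its depth.

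Among 6632 other genes with at least 10 FPKM in a library, the 8 with the profile most like the mean of the 7 had r between 0.91 and 0.94 over the 9 libraries. They were Ddx50 (0.94), a nucleolar RNA helicase, Ipo5 (0.94), a nuclear import receptor, Isyna1 (0.92), which makes inositol phosphate, Scd2 (0.92), a fatty acid desaturase, Smad2 (0.92), a signal transducer of the TGF-beta family, Alcam (0.92), an adhesion molecule, Drg2 (0.91), a GTP-binding protein, and Aldoc (0.91), a glycolytic aldolase. Isyna1 had 111 and 76.0 FPKM in P-IV.I, 44.4 and 53.9 in P-IV.II, 56.9 in PcDC1, 87.9 and 91.3 in PcDC2 and 35.8 and 43.0 in SPM. Scd2 had 22.2 and 7.22 FPKM in P-IV.I, 4.34 and 5.71 in P-IV.II, 8.61 in PcDC1, 10.2 and 6.35 in PcDC2 and 3.82 and 6.62 in SPM. In each of these genes P-IV.I replicate 1 was the highest library.

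**Figure D3:**
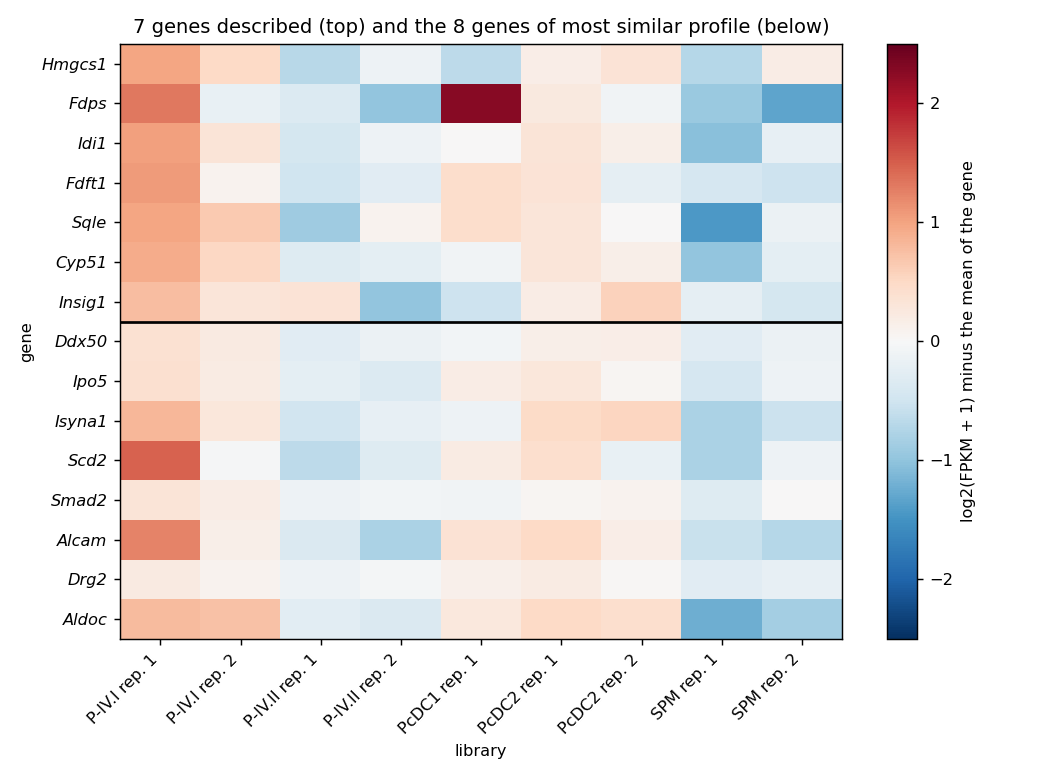
Colour shows log2(FPKM + 1) minus the gene's mean over the 9 libraries (columns), for the 7 genes above the line and the 8 genes of most similar profile below it. P-IV.I replicate 1 is high in every row, and Fdps in PcDC1 is the most extreme cell.

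The other enzymes of the pathway had smaller median differences than the 7 genes, and whether they differ from the 7 was not tested. None of 15 other cholesterol synthesis enzymes passed in P-IV.I versus P-IV.II or PcDC2 minus SPM (limma), against 9.61% and 19.7% of all tested genes. An unadjusted p under 0.05 was seen for 4 and 1 of the 15, against 27.1% and 33.1% of all tested genes. Their median log2 fold changes were 0.35 and 0.11. In P-IV.I minus SPM 0 of 15 passed, against 11% of all tested genes, with a median of 0.29. The only enzyme of this list called in any comparison was Tm7sf2, a sterol reductase after the lanosterol step, at 5.62 and 5.61 FPKM in P-IV.II against 2.46 and 3.00 in PcDC2 (log2 fold change 0.83 ± 0.22, limma adjusted p = 0.0326). That call, opposite in direction to the differences of the 7 genes, was lost in 5 of 17 other settings, among them without either library of P-IV.II or of PcDC2.

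Of 11 tested genes for SREBP processing and sterol sensing, Srebf2 was the only one called. It had 111 and 53.4 FPKM in P-IV.I, 32.6 and 12.6 in P-IV.II, 33.8 in PcDC1, 135 and 104 in PcDC2 and 27.7 and 13.9 in SPM. Both P-IV.I and both PcDC2 libraries were above every P-IV.II and SPM library. Srebf2 was higher in PcDC2 than in SPM (log2 fold change 2.53 ± 0.53, limma adjusted p = 0.0119) and lower in P-IV.II than in PcDC2 (-2.48 ± 0.53, limma adjusted p = 0.0141). The PcDC2 minus SPM call was lost without SPM replicate 2 or either PcDC2 library and the P-IV.II minus PcDC2 call without P-IV.II replicate 2 or either PcDC2 library, with adjusted p up to 0.0788 and 0.0855. In P-IV.I versus P-IV.II and P-IV.I minus SPM the Srebf2 log2 fold changes of 1.87 and 1.91 missed the threshold (limma adjusted p = 0.0658 and 0.0566).

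**Figure D4:**
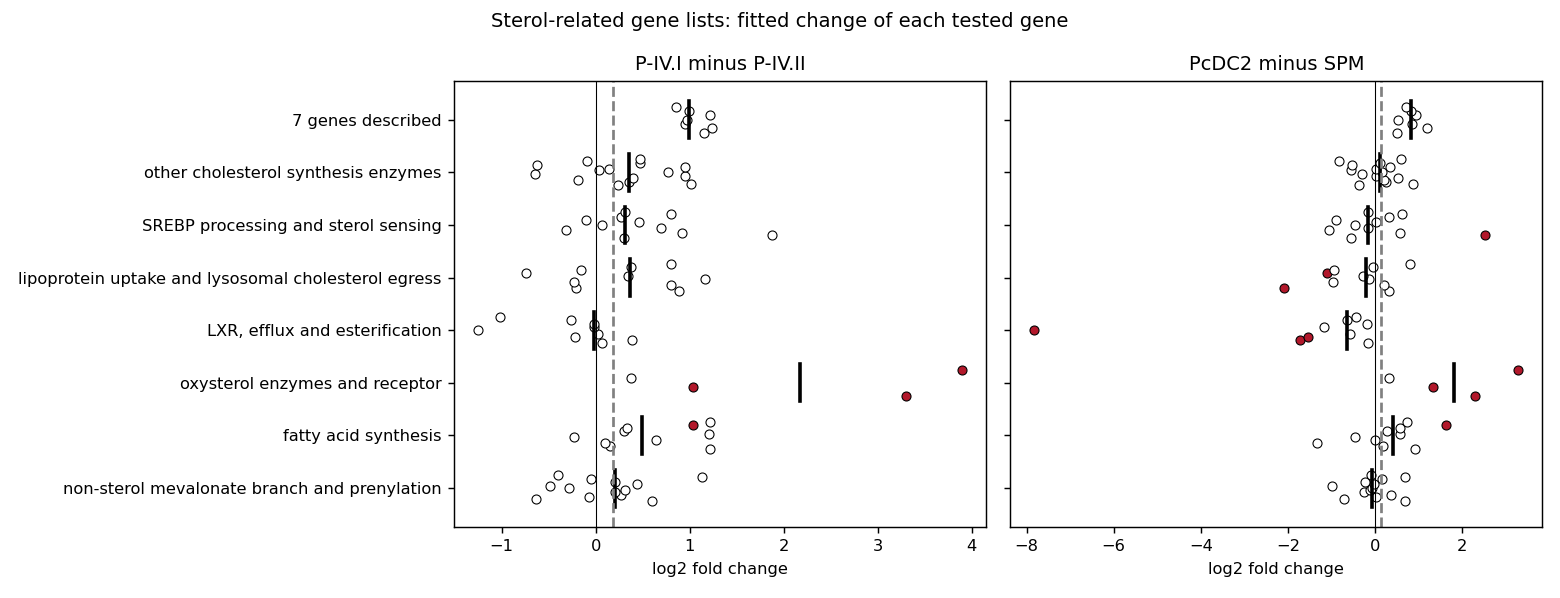
Fitted log2 fold change (x axis) of every tested gene in the 7 genes described and 7 sterol-related lists (rows), in P-IV.I versus P-IV.II and PcDC2 minus SPM; filled points have an adjusted p under 0.05, bars are list medians and the dashed line is the median of all tested genes. The oxysterol list holds 3 called genes in each panel, and the 7 genes described hold none; the filled point of Abca1 in the efflux list rests on a gene that passed the filter through SPM alone.

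Genes of lipoprotein uptake and lysosomal cholesterol egress (10 of 12 tested) had no call in P-IV.I versus P-IV.II, against 9.61% of all tested genes. There 4 had an unadjusted p under 0.05, against 27.1% of all tested genes. In PcDC2 minus SPM they had 2 lower calls, where 8.46% of all tested genes passed as lower. In either direction 19.7% of all tested genes passed, so the count is close to the general share. Lrp1, an endocytic receptor of lipoprotein remnants, had 11.3 and 5.55 FPKM in PcDC2 against 51.2 and 26.5 in SPM (log2 fold change -2.08 ± 0.56, limma adjusted p = 0.0345). Npc2, the lysosomal cholesterol carrier, had 52.9 and 62.7 FPKM in PcDC2 against 154 and 102 in SPM (-1.11 ± 0.31, limma adjusted p = 0.0404). These calls were lost in 6 and 4 of 17 other settings, each without SPM replicate 1 and without either PcDC2 library, and for Lrp1 also without either P-IV.I library. Mylip, a ubiquitin ligase that degrades lipoprotein receptors, was lower in P-IV.II (0.313 and 1.36 FPKM) than in PcDC2 (2.37 and 4.09), with a call (limma adjusted p = 0.0358) lost in 9 of 16 other settings, including median-ratio and quantile scaling and without P-IV.II replicate 1 or any library of P-IV.I or PcDC2.

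Abca1, the cholesterol exporter, had 0.483 and 0.401 FPKM in P-IV.I, 0.594 and 0.763 in P-IV.II, 0.336 and 0.497 in PcDC2 and 3.54 and 2.77 in SPM, and was listed at 0 in PcDC1. It passed the filter on low values only through the SPM libraries, so its difference from SPM is given as a description with no test. Among the other 8 LXR and cholesterol efflux genes, 2 were lower and none higher in PcDC2 minus SPM, against 8.46% of all tested genes passing as lower and 11.2% as higher. Nr1h3, which encodes LXR-alpha, had 0.545 and 0.882 FPKM in PcDC2 against 5.19 and 4.06 in SPM (log2 fold change -1.71 ± 0.28, limma adjusted p = 0.0040). Apoe, the carrier apolipoprotein, had 2.38 and 30.5 FPKM in PcDC2 against 3110 and 1746 in SPM (-7.82 ± 0.88, limma adjusted p = 0.00054). Apoe was also lower in P-IV.I than in SPM (-5.76 ± 0.88, limma adjusted p = 0.0049). The Apoe calls against SPM held in all 17 other settings and the Nr1h3 call in the 16 where it was tested.

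Inside the gate, 0 of the 9 genes of this list passed in P-IV.I versus P-IV.II (limma), against 9.61% of all tested genes, with a median log2 fold change of -0.02. The 9 include Abca1, which lay at 0.401 to 0.763 FPKM in these groups, under the filter value, so its lack of a call says nothing. An unadjusted p under 0.05 was seen for 1 of the 9, against 27.1% of all tested genes. Apoe was higher in P-IV.II, at 131 and 78.2 FPKM, than in PcDC2 (3.31 ± 0.88, limma adjusted p = 0.0323), and that call was lost in 5 of 17 other settings, among them without either P-IV.II library or PcDC2 replicate 1. The interaction estimates of Nr1h3 (2.103 ± 0.402) and Apoe (6.57 ± 1.24) had limma adjusted p values of 0.0582 and 0.0559, so no difference between the 2 contrasts was called.

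The oxysterol genes had the largest medians of the sterol lists, on the log2 scale 2.17 for P-IV.I versus P-IV.II as well as 1.82 for PcDC2 minus SPM, and 3 of 4 tested genes were higher both in P-IV.I versus P-IV.II and PcDC2 minus SPM. Of all tested genes, 6.51% and 11.2% passed as higher in these comparisons. Gpr183, a receptor for oxysterols that guides immune cells, had 38.3 and 21.3 FPKM in P-IV.I, 1.03 and 0.946 in P-IV.II, 48.4 in PcDC1, 52.4 and 45.0 in PcDC2 and 3.91 and 4.23 in SPM. It was higher in P-IV.I when set beside P-IV.II (log2 fold change 3.90 ± 0.30, limma adjusted p = 0.00056) and in PcDC2 than in SPM (3.29 ± 0.30, limma adjusted p = 0.00020). Cyp27a1, the sterol 27-hydroxylase, had 53.2 and 55.8 FPKM in P-IV.I, 6.90 and 3.02 in P-IV.II, 29.3 in PcDC1, 60.1 and 69.8 in PcDC2 and 13.2 and 11.5 in SPM, with log2 fold changes of 3.30 ± 0.33 (limma adjusted p = 0.0015) inside the gate and 2.30 ± 0.33 (limma adjusted p = 0.0019) outside it.

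Both Gpr183 (2.54 ± 0.30) and Cyp27a1 (2.05 ± 0.33) were also higher in P-IV.I than in SPM (limma adjusted p = 0.0015 and 0.0058), and lower in P-IV.II than in PcDC2 by -4.64 ± 0.30 and -3.54 ± 0.33 (limma adjusted p = 7.1e-05 and 0.00027). These calls held in every setting tried. Cyp7b1, the oxysterol 7-alpha-hydroxylase, had 1.73 and 1.65 FPKM in P-IV.I, 0.285 and 0.333 in P-IV.II, 0.146 in PcDC1, 5.40 and 3.78 in PcDC2 and 1.12 and 1.28 in SPM. It was higher in PcDC2 than in SPM (1.33 ± 0.22, limma adjusted p = 0.0041) and in P-IV.I when set beside P-IV.II (1.04 ± 0.22, limma adjusted p = 0.0249), where the P-IV.I call was lost in 7 of 16 other settings that include leaving out any library of P-IV.I or P-IV.II. Cyp7b1 was lower in P-IV.II than in PcDC2 (-2.08 ± 0.22, limma adjusted p = 0.00051).

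**Figure D5:**
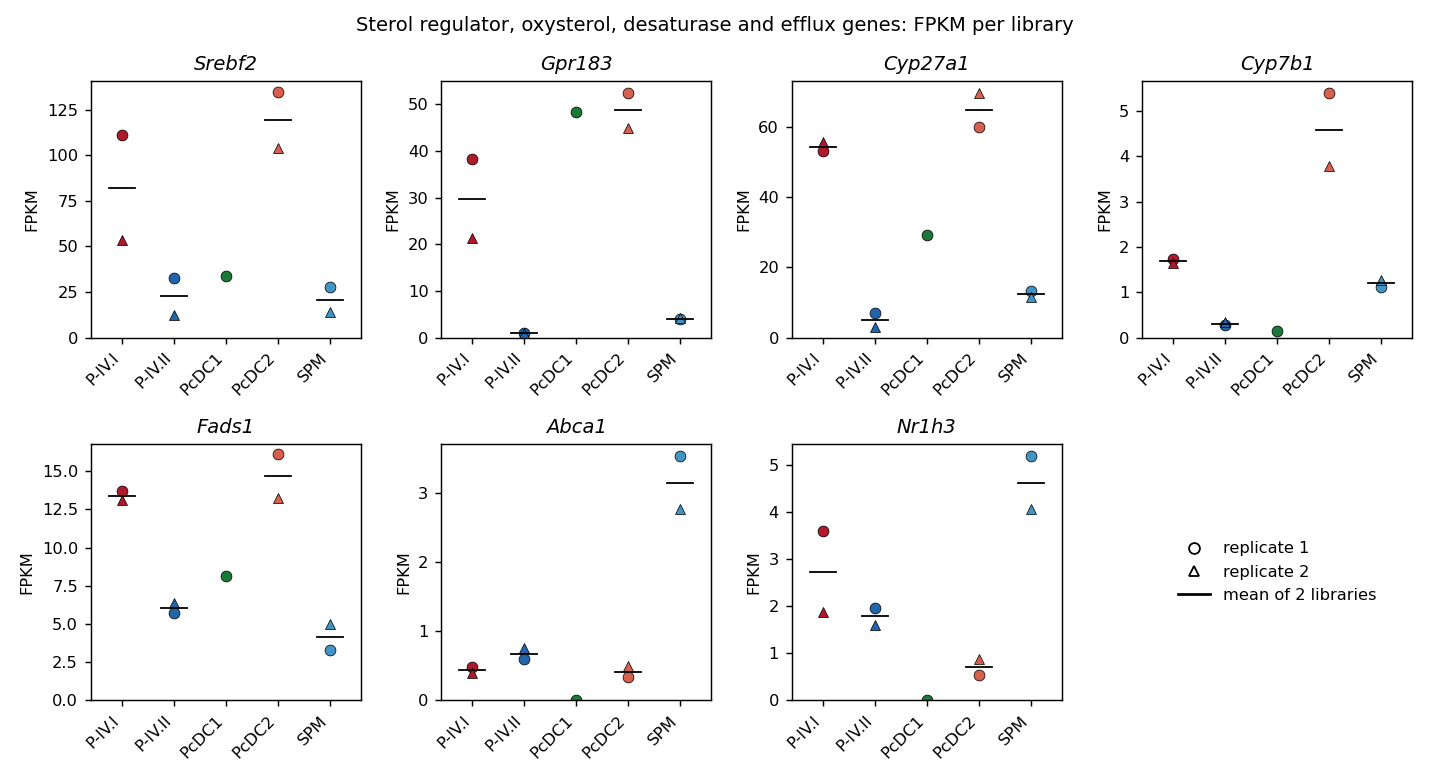
FPKM per library (y axis, linear, a scale of its own per gene) of Srebf2, the oxysterol genes Gpr183, Cyp27a1 and Cyp7b1, the desaturase Fads1 and the efflux genes Abca1 and Nr1h3 by sorted group (x axis); circles are replicate 1, triangles replicate 2 and lines the mean of 2 libraries. Gpr183 and Cyp27a1 are high in P-IV.I and PcDC2, while Abca1 reaches 3.54 FPKM in SPM and stays under 1 FPKM in every other group.

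In fatty acid synthesis, the neighbouring SREBP1-driven pathway, 1 of 10 tested genes was called in P-IV.I versus P-IV.II and PcDC2 minus SPM, the same gene Fads1, a desaturase of polyunsaturated fatty acids. Of all tested genes, 9.61% and 19.7% passed in these comparisons, and 6.51% and 11.2% passed as higher. A count of 1 in 10 does not set the list apart from these shares. Fads1 had 13.7 and 13.1 FPKM in P-IV.I, 5.72 and 6.37 in P-IV.II, 8.15 in PcDC1, 16.2 and 13.3 in PcDC2 and 3.29 and 5.01 in SPM. It was higher in PcDC2 than in SPM (log2 fold change 1.62 ± 0.26, limma adjusted p = 0.0033) and in P-IV.I than in SPM (1.504 ± 0.26, limma adjusted p = 0.0082, lost without P-IV.I replicate 1 at 0.0592). In P-IV.I against P-IV.II the Fads1 log2 fold change was 1.03 ± 0.26 (limma adjusted p = 0.0444), a call lost in 10 of 17 other settings, including median-ratio and quantile scaling and leaving out any library of P-IV.I, P-IV.II or PcDC2. Fads1 was also lower in P-IV.II than in PcDC2 (-1.15 ± 0.26, limma adjusted p = 0.0170), a call lost on leaving out any library of these groups and with quantile scaling.

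Of 13 genes of the non-sterol mevalonate branch and prenylation, which use the same farnesyl supply, 0 passed in P-IV.I versus P-IV.II or in PcDC2 minus SPM (limma), against 9.61% and 19.7% of all tested genes. An unadjusted p under 0.05 was seen for 1 and 3 of the 13, against 27.1% and 33.1% of all tested genes. Pdss1, which makes the side chain of ubiquinone, was the only gene of the list called in any comparison, at 2.71 and 5.08 FPKM in P-IV.II against 1.46 and 1.12 in PcDC2 (log2 fold change 1.06 ± 0.29, limma adjusted p = 0.0384). That call was lost in 7 of 16 other settings, including without P-IV.II replicate 2 or any library of P-IV.I or PcDC2.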

How the data were processed

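RNA of sorted peritoneal cells was copied with a SMARTer Ultra low input kit and sequenced on an Illumina NovaSeq, per the labels. Tools listed in the submitters' processing notes are bcl2fastq (1.8.4), Cufflinks, HISAT2 (2.1.0) and StringTie (1.3.4d), with build mm10; strand use is not stated in what was available. The authors deposited normalized FPKM values for 24532 genes in 9 libraries. Steps worth 1 read were not found among the 317 to 1274 low genes of any of the 36 pairs of libraries (at most 4.37% agreed on a ratio within 1%), so depth is unknown and no counting interval is given. The 10526 genes that reached 1 FPKM in 2 or more libraries were fitted as log2(FPKM + 1) over all 9 libraries with limma 3.58.1 in R 4.3.3 (lmFit, contrasts.fit, eBayes with a variance trend). The fit had 4 residual degrees of freedom plus a prior of 4.02. Two-sided p-values were adjusted by Benjamini-Hochberg within each comparison, threshold 0.05. The fit was tested on simulated data.

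The 7 genes and all lists were chosen with earlier results of these data known. Named genes are all 7; per list, up to 5 genes with an adjusted p under 0.05 in any comparison; and the 8 most similar profiles, predicted genes left out. Genes of overlapping annotation (Ctsb, Akap9), Pmvk, Mvd and Lbr were added after values were seen. Some cholesterol genes are counted in lists but not reported by name here. Alternatives were pseudocounts of 0.1 and 5, no filter, FPKM of at least 5, median-ratio and quantile scaling, no variance trend, a replicate block, only the groups compared, and leaving out each library.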

Additional observations from a re-analysis of the deposited data

How the results depend on the processing

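All 7 genes stayed above 0 in P-IV.I versus P-IV.II, PcDC2 minus SPM and P-IV.I minus SPM, and below 0 in P-IV.II minus PcDC2, in all 18 settings, and no called value changed sign. Calls among the 7 moved more. In P-IV.I minus SPM the 1 call became 0 with no filter, with median-ratio rescaling and with only the groups compared, and 0 to 3 when a library was left out. P-IV.I versus P-IV.II gave 0 to 1 calls and PcDC2 minus SPM 0 to 1 when a library was left out, and PcDC2 minus SPM gave 1 with only the groups compared. P-IV.II minus PcDC2 gave 0 to 1 (Insig1 lower without P-IV.II replicate 1). The F test, whose alternatives were added after seeing the data, gave 1 with a pseudocount of 5 and 0 to 2 when a library was left out. Same-numbered libraries deviated together in SPM and P-IV.II (r = 0.711), SPM and P-IV.I (0.548) and P-IV.II and P-IV.I (0.336). Those of PcDC2 did not, with r from -0.284 to 0.053 with these groups. The labels do not pair the libraries, and the replicate numbers were not taken as pairs in the main fit. With them as a block the calls were 1 in P-IV.I versus P-IV.II, 1 in PcDC2 minus SPM, 4 in P-IV.I minus SPM and 2 in the F test, and calls over all tested genes were 1607 against 1012 in P-IV.I versus P-IV.II, 193 against 120 in P-IV.II minus SPM, 143 against 77 in P-IV.I minus PcDC2 and 210 against 117 in the interaction. Against its 120 calls over all tested genes, P-IV.II minus SPM gave 53 (pseudocount 0.1), 69 (no filter), 77 (FPKM of at least 5) and 18 (only the groups compared). Leaving out a library, where a lone library is assumed to vary like the other groups, gave 366 to 1006 calls in P-IV.I versus P-IV.II, 1036 to 2032 of 2069 in PcDC2 minus SPM, 555 to 1131 of 1157 in P-IV.I minus SPM, 12 to 63 in P-IV.II minus SPM, 15 to 54 in P-IV.I minus PcDC2, 867 to 2210 of 2183 in P-IV.II minus PcDC2 and 29 to 76 in the interaction. Median-ratio rescaling moved the median of all tested genes in P-IV.I versus P-IV.II to -0.01, with 469 higher and 518 lower calls against 685 and 327, and the median of the 7 genes to 0.77. It gave 963 higher and 1089 lower calls against 1178 and 891 in PcDC2 minus SPM, 520 and 630 against 675 and 482 in P-IV.I minus SPM, and 1065 and 1018 against 792 and 1391 in P-IV.II minus PcDC2. Quantile scaling gave 464 and 448 in P-IV.I versus P-IV.II and 971 and 988 in P-IV.II minus PcDC2. The cause of these moves was not tested. The unknown depth limits what can be said of genes near 1 FPKM.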

Other observations

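In the single PcDC1 library, Pmvk, the phosphomevalonate kinase of the same pathway, was high beside Fdps, and it was chosen after its values were seen. Pmvk had 58.4 FPKM in PcDC1, against 10.2 and 10.2 in PcDC2, 11.5 and 7.97 in P-IV.I, 11.5 and 10.7 in P-IV.II and 10.2 and 7.27 in SPM. Other enzymes of the list went the other way. Mvd, the decarboxylase after Pmvk, had 3.71 FPKM in PcDC1 against 19.8 and 20.1 in PcDC2. Of the 15 other cholesterol synthesis enzymes 6 were above both PcDC2 libraries in PcDC1, 6 below both and 3 between them. The shares of all tested genes in these places were not computed, so these counts do not set the list apart from other genes. With 1 library these differences have no replicate check.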
